A study of Homo sapiens with 15 samples.

Results

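The 10 genes described here encode chaperones and folding enzymes of the endoplasmic reticulum (ER): HSPA5, HSP90B1, CALR, CANX, PDIA3, PDIA4, PDIA6, HYOU1, SDF2L1 and DNAJB9. They were chosen by the level of HSPA5, which was much lower after cisplatin than in untreated cells in these counts, so all comparisons with untreated cells are given as a description and without a test. All 10 genes were found among the 47634 genes listed for each library, and all 10 were among the 11113 genes that passed the filter on low counts. The cells were IGROV-CP20, a human ovarian cancer cell line that is resistant to cisplatin. The 3 other treatments combined a drug with cisplatin: Tranilast (an anti-allergic compound), Telmisartan (an angiotensin receptor blocker) and Amphotericin B (an antifungal polyene). There were 5 conditions with 3 biological replicates each. One was left untreated, another received cisplatin (50 µM) during 24 h, and in the rest a drug at 10 µM was present for 24 h before the same exposure to cisplatin. Every drug library therefore also carries cisplatin, and no library shows a drug alone. All 15 libraries came from the same cell line.

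Proteins that enter the ER fold with the help of a small set of abundant chaperones. BiP, the product of HSPA5, holds unfolded chains and works with GRP94 (HSP90B1) and with the exchange factor HYOU1, calnexin and calreticulin hold glycoproteins, and the protein disulfide isomerases form and rearrange disulfide bonds. When unfolded proteins build up, the sensors ATF6, IRE1 (ERN1) and PERK (EIF2AK3) start the unfolded protein response (UPR), in which ATF6 and the IRE1 product XBP1 raise transcription of these chaperones through ER stress response elements (ERSE), while PERK acts through the transcription factor ATF4 on another set of genes.

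The promoter sequences are shown because these elements are where ATF6 and XBP1 are known to act. In the RefSeq promoter windows of GRCh38.p14, each holding the 250 bases before and the 50 bases from a gene's start, 9 of the 10 genes were found; PDIA3 was not. The ERSE, searched on both strands as CCAAT and CCACG with 9 bases between them, stood in the windows of 5 of these 9 genes, against 25 of 27305 genes in all (0.0916%). The ERSE-II, searched on both strands as ATTGG and CCACG with 1 base between them, stood in 2 of the 9, HYOU1 and SDF2L1, against 19 of 27305 (0.0696%). The UPR element TGACGTGG, on either strand, stood in HYOU1, where it overlaps an ERSE-II, against 253 of 27305 genes (0.927%). The windows of PDIA4 and DNAJB9 held none of these letter strings. The sequences below are written 5′ to 3′ on the strand of the gene, and capitals mark the fixed letters of a match. The HSPA5 window (chr9:125241294-125241593, minus strand) and the SDF2L1 window (chr22:21642052-21642351, plus strand) are given whole, as the promoters of the gene farthest below its untreated level after cisplatin and of the gene above it.
HSPA5: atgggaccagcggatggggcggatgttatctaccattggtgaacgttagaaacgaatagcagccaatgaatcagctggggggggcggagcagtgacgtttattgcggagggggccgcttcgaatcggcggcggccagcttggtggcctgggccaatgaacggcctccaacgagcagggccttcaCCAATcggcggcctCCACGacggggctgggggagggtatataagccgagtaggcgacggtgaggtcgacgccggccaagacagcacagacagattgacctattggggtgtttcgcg
SDF2L1: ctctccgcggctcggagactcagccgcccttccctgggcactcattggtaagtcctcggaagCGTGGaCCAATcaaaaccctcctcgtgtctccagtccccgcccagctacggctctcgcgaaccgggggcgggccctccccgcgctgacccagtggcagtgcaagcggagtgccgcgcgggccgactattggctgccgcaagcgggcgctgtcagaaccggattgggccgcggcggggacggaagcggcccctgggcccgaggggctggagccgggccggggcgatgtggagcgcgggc
For 5 other genes the stretch around the matches is given. It lies at chr12:103930196-103930359 on the plus strand for HSP90B1, which has a match on each strand, and at chr19:12938364-12938422 on the plus strand for CALR. For CANX it lies at chr5:179698758-179698816 on the plus strand. For PDIA6 it lies at chr2:10812833-10812891 on the minus strand, and for HYOU1, with 2 ERSE-II matches, at chr11:119057254-119057413 on the minus strand.
HSP90B1: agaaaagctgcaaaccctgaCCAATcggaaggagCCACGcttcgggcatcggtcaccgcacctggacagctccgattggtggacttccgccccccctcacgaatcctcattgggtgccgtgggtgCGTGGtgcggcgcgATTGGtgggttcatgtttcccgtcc
CALR: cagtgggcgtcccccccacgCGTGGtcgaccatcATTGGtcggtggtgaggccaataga
CANX: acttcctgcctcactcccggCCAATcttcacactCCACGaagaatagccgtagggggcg
PDIA6: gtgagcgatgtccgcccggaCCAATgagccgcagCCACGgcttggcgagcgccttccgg
HYOU1: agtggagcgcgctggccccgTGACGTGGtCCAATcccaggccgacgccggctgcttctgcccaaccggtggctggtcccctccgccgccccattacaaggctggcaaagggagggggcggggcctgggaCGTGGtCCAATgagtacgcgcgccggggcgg
These are matches of letters only, and binding was not measured.

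The libraries were sequenced from the 3′ end of mRNA (QuantSeq) and held between 1510620 and 3517041 counts. Values below are normalized CPM, counts divided by the library's total as scaled by the trimmed mean of M-values (TMM). They describe a share of the RNA, so fewer cells of a type and less RNA per cell cannot be told apart. Mitochondrial ribosomal RNA took 1.79 to 2.20% of the counts in untreated libraries and 2.10 to 2.53% with Tranilast, but 3.41 to 13.7% with cisplatin alone, 3.61 to 12.9% with Telmisartan and 12.3 to 14.8% with Amphotericin B. Its part in the results was not tested. The first cisplatin library stood apart from the others of its group: it was the highest for 8 of the 10 genes, by 3.44 times their mean for PDIA3, 2.98 for HYOU1 and 2.33 for HSP90B1, and the lowest for SDF2L1. Mitochondrial ribosomal RNA was 13.7% in it, and 5.61 and 3.41% in the others. The third Telmisartan library, at 3.61% beside 10.8 and 12.9%, was the lowest of its group for all genes but HSPA5 and DNAJB9, where it was the highest. Whether these differences go together was not tested. The epithelial genes EPCAM (11.2 to 43.4 CPM), KRT18 (84.0 to 209 CPM), KRT8 (7.14 to 26.3 CPM) and CDH1 (1.59 to 10.7 CPM) were present in all libraries. KRT19 (0 to 6.35 CPM) was at 0 in 1. Untreated cells held the top of the EPCAM range (39.9 to 43.4 CPM) but the bottom of the KRT18 range (84.0 to 92.4 CPM). The ovarian markers PAX8 and MUC16 were at 0 in 14 and WT1 in 12 of the 15 libraries. The summed level of the 8 epithelial and ovarian markers was 148 to 154 CPM in untreated cells and 147 to 252 CPM in the treated libraries. Of 4 markers of other cells, 3 were matched (PTPRC, COL1A1 and ALB); their sum was 74.2 to 84.0 CPM in untreated cells and 21.0 to 44.2 CPM in the treated libraries. In untreated cells most of it was PTPRC, a leukocyte gene, at 64.5 to 75.4 CPM. In treated libraries PTPRC was as low as 2.45 CPM. COL1A1 and ALB reached 32.7 and 9.70 CPM there, beside at most 8.63 and 2.04 CPM in untreated cells. The part of these genes in the results was not tested.

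HSPA5 (ENSG00000044574, GRCh38 chromosome 9, 125234853 to 125241330, minus strand) encodes BiP, the ER member of the HSP70 family. Its level was 4524, 4140 and 4370 CPM in the untreated libraries and 818, 427 and 443 CPM after cisplatin. With a drug added it was 675, 966 and 991 CPM for Tranilast, 472, 484 and 554 CPM for Telmisartan, and 431, 592 and 403 CPM for Amphotericin B. The untreated libraries lay far above all 12 treated ones, and the treated groups overlapped their neighbours in the order of levels. The mean was 4344 ± 193 CPM in untreated cells and 562 ± 221 CPM after cisplatin (SD, n = 3 each), which is 12.9% of the untreated mean, or 7.72-fold lower (log2 fold change −2.95). With Tranilast it was 877 ± 176 CPM (20.2% of untreated), with Telmisartan 503 ± 44.7 CPM (11.6%) and with Amphotericin B 475 ± 102 CPM (10.9%; SD, n = 3 each). HSPA5 rested on 541 to 17165 counts per library, and no annotated gene overlaps it.

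HYOU1 (ENSG00000149428, chromosome 11, 119044189 to 119057202, minus strand), a large HSP70 relative that exchanges the nucleotide of BiP, had the next lowest level relative to untreated cells after cisplatin (21.4% of the untreated mean). It was 523, 495 and 501 CPM untreated and 194, 75.5 and 54.8 CPM after cisplatin, a log2 fold change of −2.24. The drug libraries ranged from 52.3 to 140 CPM, with means of 20.7% (Tranilast), 19.0% (Telmisartan) and 25.0% (Amphotericin B) of untreated. All 12 treated libraries lay below the untreated ones, and the treated groups overlapped each other. Without the first cisplatin library, the log2 ratio of mean CPM to untreated was −2.96. HYOU1 had as few as 138 counts in a library and shares exon positions with AP003392.3 (0 to 55 counts) on the opposite strand, so its level is uncertain to that extent. HSP90B1 (ENSG00000166598, chromosome 12, 103930107 to 103953645, plus strand), which encodes GRP94, the ER form of HSP90, was 930, 917 and 866 CPM untreated and 354, 168 and 135 CPM after cisplatin (log2 fold change −2.05). With a drug added it was 117, 173 and 192 CPM for Tranilast, 229, 262 and 138 CPM for Telmisartan, and 272, 326 and 294 CPM for Amphotericin B. The Amphotericin B libraries lay above those of Tranilast and Telmisartan, and the spread after cisplatin alone covered parts of each. Without the first cisplatin library, the log2 ratio to untreated was −2.58. HSP90B1 has pseudogene copies, and a gene on the opposite strand, C12orf73 (12 to 57 counts), shares exon positions with it, so its level is uncertain to that extent.

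**Figure D1:**
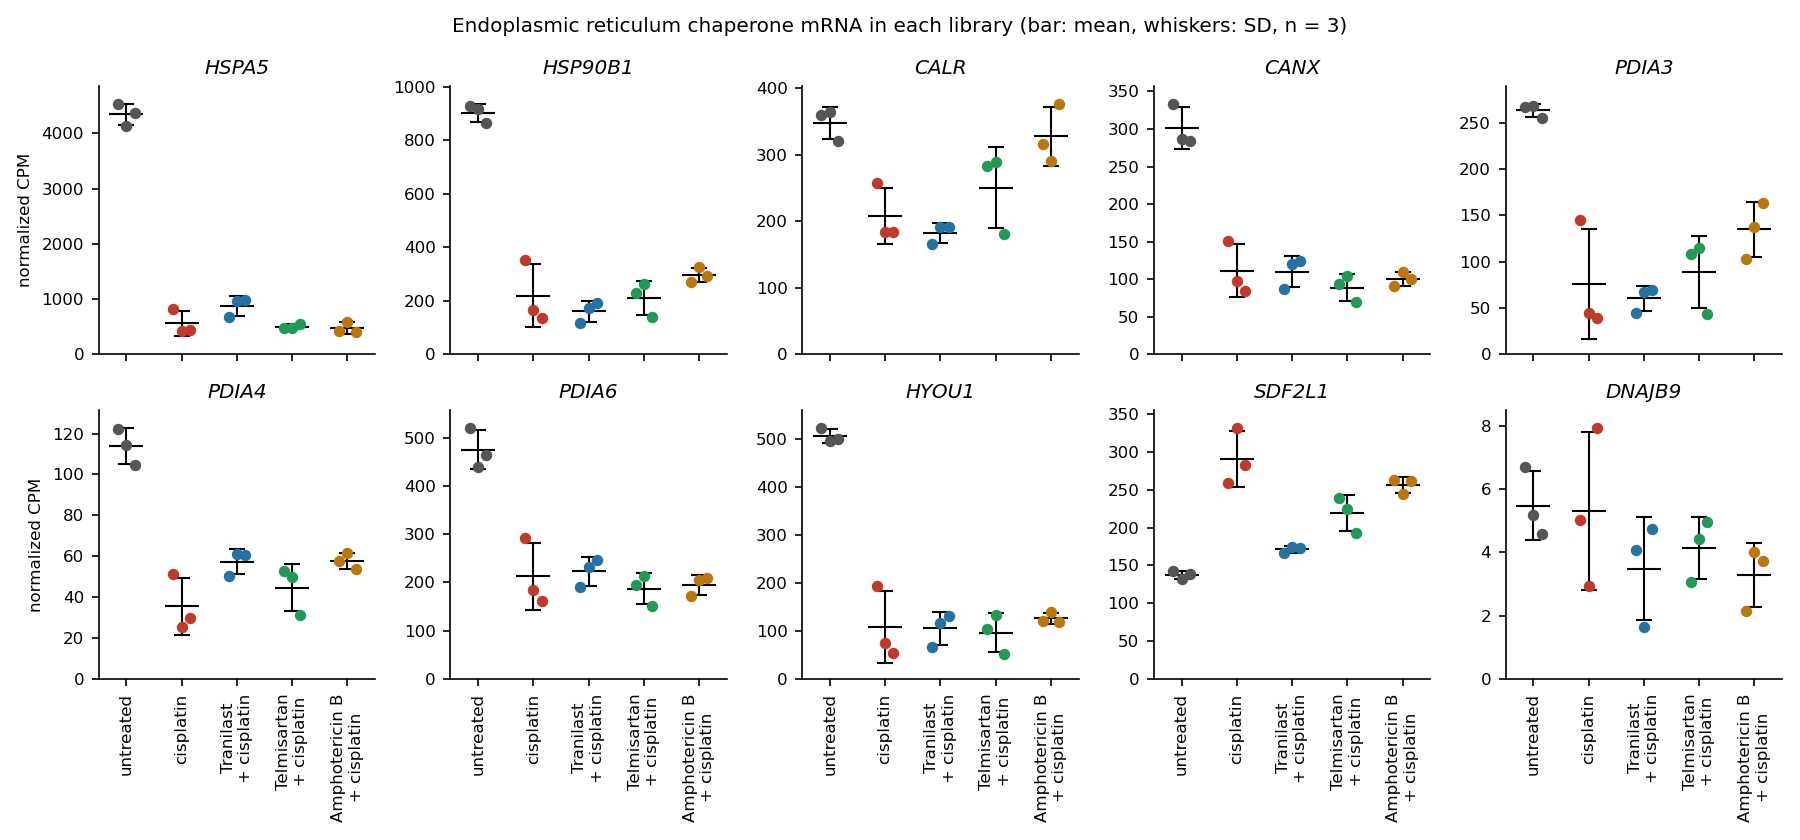
Normalized CPM (vertical axes, linear, from 0) of the 10 chaperone genes in each of the 15 libraries, by condition; points are libraries, in the order of replicates 1 to 3, the horizontal bar is the mean and the whiskers the SD (n = 3). HSPA5 lies between 4140 and 4524 CPM in untreated cells and between 403 and 991 CPM in all treated libraries, whereas SDF2L1 is higher in every treated library (166 to 332 CPM) than in untreated cells (132 to 143 CPM).

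The lectin chaperones differed from each other. CANX (ENSG00000127022, chromosome 5, 179678628 to 179730925, plus strand), the membrane-bound calnexin, was 334, 287 and 284 CPM untreated and 151, 97.6 and 85.0 CPM after cisplatin (36.9% of untreated, log2 fold change −1.44). The drug libraries lay between 69.4 and 124 CPM and overlapped those of cisplatin alone. CALR (ENSG00000179218, chromosome 19, 12938578 to 12944489, plus strand), its soluble relative calreticulin, was 360, 364 and 320 CPM untreated and 257, 183 and 184 CPM after cisplatin (59.8%, log2 fold change −0.74). With a drug added it was 165, 191 and 191 CPM for Tranilast, 283, 289 and 181 CPM for Telmisartan, and 316, 291 and 377 CPM for Amphotericin B. CALR with Amphotericin B, at 94.2% of untreated, was the one case among these 8 lower genes and the treatments in which treated and untreated libraries overlapped.

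The 3 disulfide isomerases were all lower than in untreated cells. PDIA3 (ENSG00000167004, chromosome 15, 43746392 to 43773279, plus strand), which encodes ERp57, the isomerase that works with calnexin and calreticulin, was 267, 268 and 256 CPM untreated and 144, 44.6 and 39.3 CPM after cisplatin (28.9%, log2 fold change −1.81). With a drug added it was 45.0, 66.8 and 70.0 CPM for Tranilast, 109, 114 and 43.8 CPM for Telmisartan, and 103, 138 and 163 CPM for Amphotericin B. The first cisplatin library and the third Telmisartan library stood away from the other libraries of their groups, and without the former the log2 ratio to untreated was −2.65. PDIA3 has a processed pseudogene, and ELL3 (4 to 27 counts) overlaps it on the opposite strand, so its level is uncertain to that extent. PDIA4 (ENSG00000155660, chromosome 7, 149003062 to 149028641, minus strand), the ERp72 isomerase, was 122, 114 and 105 CPM untreated and 51.5, 25.5 and 29.8 CPM after cisplatin (31.3%, log2 fold change −1.69). It was 50.2, 61.1 and 60.7 CPM with Tranilast, 52.6, 49.7 and 31.4 CPM with Telmisartan, and 57.6, 61.8 and 53.7 CPM with Amphotericin B. The Amphotericin B libraries all lay above those of cisplatin alone, and those of Tranilast and Telmisartan overlapped them. PDIA6 (ENSG00000143870, chromosome 2, 10783391 to 10837977, minus strand), another isomerase that binds BiP, was 521, 441 and 465 CPM untreated, 292, 184 and 162 CPM after cisplatin (44.7%, log2 fold change −1.16) and 151 to 248 CPM in the drug libraries.

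SDF2L1 (ENSG00000128228, chromosome 22, 21642261 to 21644298, plus strand), a small lumenal partner of the ER DnaJ proteins, went the other way. It was 143, 132 and 138 CPM untreated and 259, 332 and 283 CPM after cisplatin, 212% of the untreated mean (log2 fold change 1.08). With a drug added it was 166, 174 and 173 CPM for Tranilast, 240, 225 and 193 CPM for Telmisartan, and 264, 245 and 262 CPM for Amphotericin B. Every treated library lay above the untreated ones. From untreated to Tranilast, Telmisartan and Amphotericin B the groups did not overlap, and Amphotericin B overlapped cisplatin alone. Scaled by library size alone the log2 ratios to untreated stayed above 0, at 0.74 for cisplatin, 0.41 for Tranilast, 0.39 for Telmisartan and 0.33 for Amphotericin B. DNAJB9 (ENSG00000128590, chromosome 7, 108569568 to 108574850, plus strand), which encodes ERdj4, a DnaJ co-chaperone of BiP, had 3 to 21 counts per library and means of 3.29 to 5.49 CPM. Counts this low leave its differences imprecise (Amphotericin B against untreated −0.73, 95% interval −1.81 to 0.34), and it shares exon positions on the opposite strand with THAP5 (20 to 225 counts) and PNPLA8 (13 to 128 counts).

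Counted over the genes, 8 of 10 had all cisplatin libraries below all untreated libraries (29.5% of all 11113 genes did) and 1, SDF2L1, had them above (24% of all genes). These counts rest on the contrast that chose HSPA5. For Tranilast the same counts were 8 below (25.1% of all genes) and 1 above (21.1%), for Telmisartan 8 below (26.3%) and 1 above (18.4%), and for Amphotericin B 8 below (35.3%) and 1 above (23.4%), where CALR overlapped and DNAJB9, on 3 to 5 counts per Amphotericin B library, was counted as below. These comparisons all share the untreated libraries. In 7 genes all 12 treated libraries lay below all 3 untreated ones, as in 1453 of the 11113 genes (13.1%). The median log2 fold change of the 10 genes against untreated was −1.56 for cisplatin, −1.27 for Tranilast, −1.48 for Telmisartan and −1.13 for Amphotericin B, beside −0.01, −0.01, −0.03 and −0.19 over all genes.

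**Figure D2:**
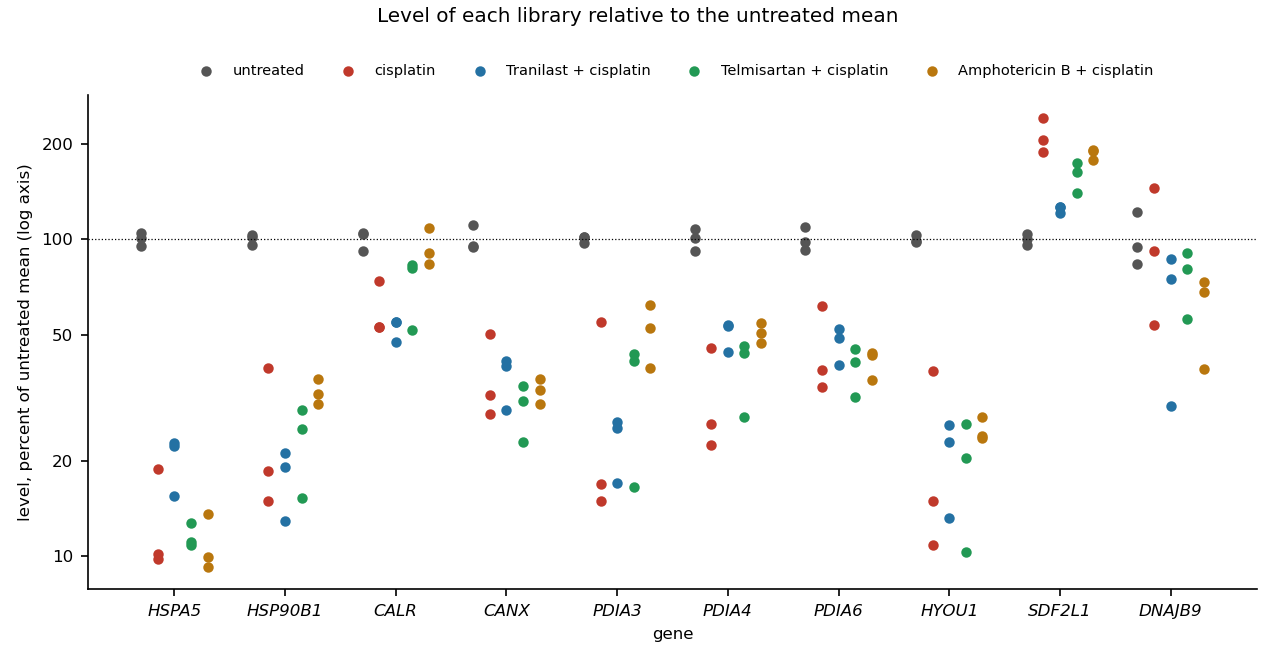
Level of each library as a percentage of the untreated mean of the same gene (log axis), for the 10 genes and 5 conditions; each point is 1 library and the dotted line marks 100%. HSPA5 lies at 9.28 to 22.8% in the treated libraries, CALR reaches 108% with Amphotericin B, and SDF2L1 lies at 120 to 241% in the treated libraries.

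Whether a drug changed the chaperones beyond cisplatin was asked by comparing each combination with cisplatin alone. The sources used here name no vehicle step before cisplatin alone, so the drug and the added 24 h before cisplatin cannot be told apart. These 3 comparisons share the 3 cisplatin libraries, which also helped to choose HSPA5, so they are not fully independent of that choice. HSPA5 is therefore described without a test (log2 fold change 0.64 for Tranilast, −0.16 for Telmisartan and −0.24 for Amphotericin B), and the counts are over the other 9 genes. Adjusted p-values come from the quasi-likelihood test of edgeR and are corrected by the Benjamini-Hochberg method over all 11113 genes. Where libraries are said to lie above or below those of cisplatin alone, the share of all genes doing so was not counted. With Tranilast, SDF2L1 fell by 0.77 on the log2 scale (SE 0.155, adjusted p = 0.00364 by edgeR), and its 3 libraries all lay below those of cisplatin alone. The call was lost with library size alone (−0.33, adjusted p = 0.200) and held in the other 22 of 23 alternatives. PDIA4 was higher by 0.70 (SE 0.241, adjusted p = 0.0445 by edgeR), although its libraries overlapped and the call was lost in 14 of 23 alternative settings, with adjusted p from 0.00193 to 0.206. That is 1 of 9 genes lower and 1 of 9 higher, where 11.6% of all genes were called lower and 10.5% higher, and 7 genes did not pass. HYOU1 (−0.03, 95% interval −0.81 to 0.75) and CANX (−0.01, −0.46 to 0.45) had values near 0 with intervals that leave room for changes in either direction.

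With Telmisartan none of the 9 genes passed the edgeR test, 0% of all genes did, and DESeq2 also called 0 of the 9. Of the 6804 genes to which DESeq2 gave an adjusted p, it called 42 lower and 13 higher. Without the first cisplatin library edgeR called 244 of 11332 genes lower and 301 higher, with 0 of the 9 among them. At an unadjusted p under 0.05 edgeR gave 1 of 9, SDF2L1 (−0.41, SE 0.155, adjusted p = 0.376), and 10.3% of all genes. All 3 Telmisartan libraries of SDF2L1 lay below those of cisplatin alone, a pattern whose share over all genes was not counted. With Amphotericin B, CALR rose by 0.66 (SE 0.202, adjusted p = 0.0399 by edgeR), with all 3 libraries above those of cisplatin alone. That is 1 of 9 genes, where 4.21% of all genes were called higher and 9.01% lower. PDIA4, whose libraries also lay above those of cisplatin alone, had a value of 0.71 and did not pass (SE 0.251, adjusted p = 0.0660 by edgeR). The CALR call was lost in 15 of the 23 alternatives (adjusted p 0.00393 to 0.156). Without the first cisplatin library 5 of the 9 genes were called higher, CALR, HSP90B1, HYOU1, PDIA3 and PDIA4, with log2 fold changes of up to 1.73 for PDIA3, against 0.84 with that library (adjusted p = 0.162 by edgeR, all libraries). The calls over all genes also rose without it, to 1885 of 11332 higher and 1949 lower. With Amphotericin B 0 of the 9 genes were called lower, by edgeR or by DESeq2. At an unadjusted p under 0.05 edgeR gave 0 of the 9 lower and 2 higher. Over all 11113 genes it gave 2092 lower and 1415 higher.

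**Figure D3:**
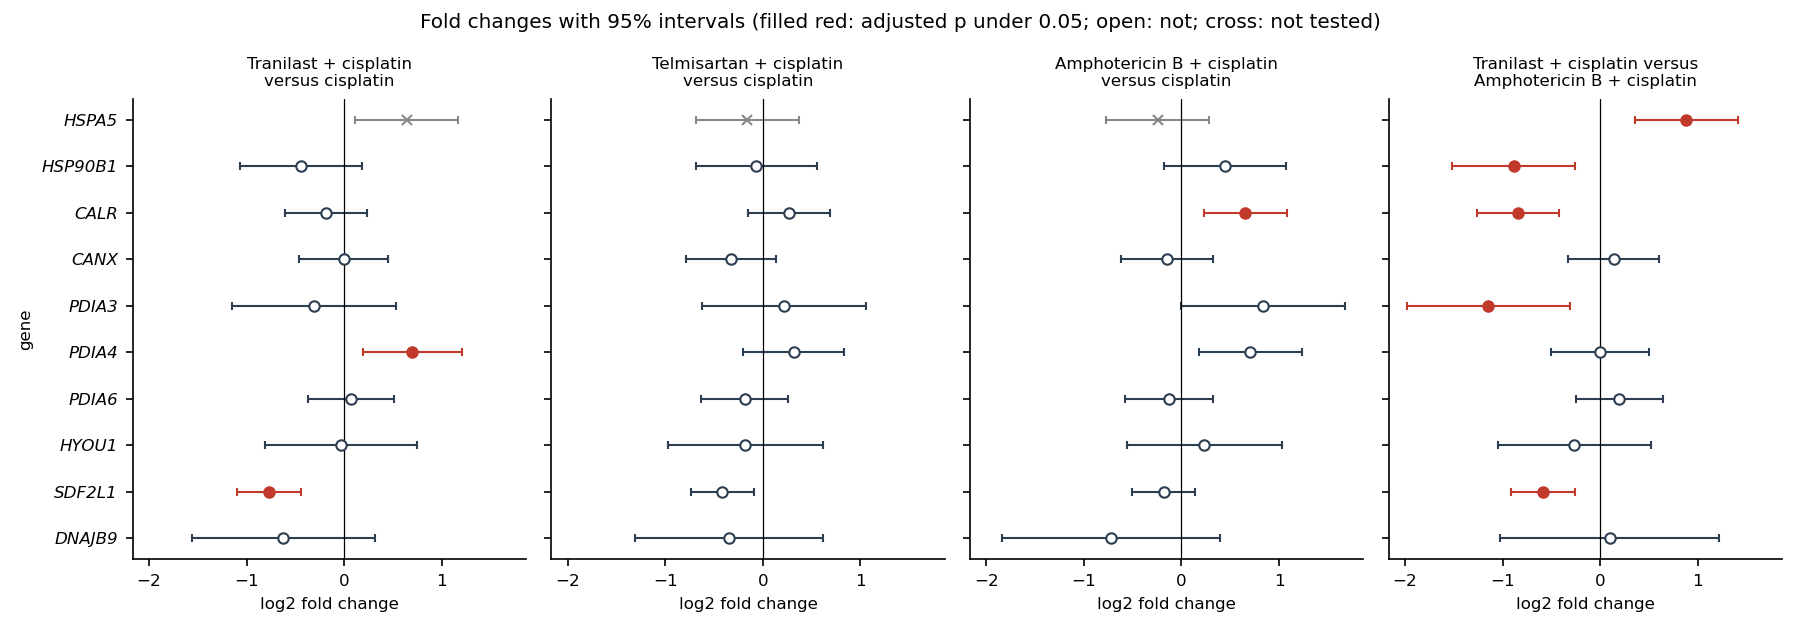
Log2 fold changes (horizontal axis) of the 10 genes in the 3 comparisons with cisplatin alone and in Tranilast against Amphotericin B, with 95% intervals from the edgeR fit; filled red points passed an adjusted p of 0.05, open points did not, and grey crosses were not tested. In the last panel HSPA5 (0.88) lies to the right of 0 and PDIA3 (−1.15), HSP90B1 (−0.89), CALR (−0.84) and SDF2L1 (−0.58) to the left.

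The drugs were also compared with each other. The groups compared hold none of the libraries that chose HSPA5, so all 10 genes are counted. The filter, the scaling and the estimate of spread still came from all 15 libraries, so these tests are not fully independent of that choice. Between Tranilast and Amphotericin B, HSPA5 was higher with Tranilast by 0.88 (SE 0.253, adjusted p = 0.0125 by edgeR), while 4 genes were lower with Tranilast. These were CALR (−0.84, SE 0.201, adjusted p = 0.00469 by edgeR), SDF2L1 (−0.58, SE 0.156, adjusted p = 0.00869), HSP90B1 (−0.89, SE 0.299, adjusted p = 0.0285) and PDIA3 (−1.15, SE 0.400, adjusted p = 0.0331). In each of the 5 the libraries of Tranilast and Amphotericin B did not overlap, but the share of all genes without overlap was not counted for this comparison. Over all genes 16.4% were called lower and 19.7% higher, or 36% in either direction, beside 5 of these 10. With all 15 libraries, the genes that passed thus include BiP on one side and GRP94, calreticulin and ERp57 on the other. CANX (0.14), PDIA4 (−0.01), PDIA6 (0.20), HYOU1 (−0.26) and DNAJB9 (0.10) did not pass. These calls depended on single libraries. Only 2 genes were lower without Tranilast replicate 1 or 2 or Amphotericin B replicate 2 or 3, and HSPA5 was not called without Amphotericin B replicate 3. The scale matters here. The median of all genes was 0.15 with TMM, 0.03 with RLE factors and 0.81 with library size alone, and the calls over all genes were 1817 lower and 2186 higher with TMM, 2105 and 1655 with RLE, and 763 and 5313 with library size alone. Under the last, none of the 4 genes was called lower and SDF2L1 was at 0.077, below that median, while HSPA5 was at 1.54. The groups also differ in mitochondrial ribosomal RNA (2.10 to 2.53% against 12.3 to 14.8%), whose part was not tested.

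Between Tranilast and Telmisartan 0 of the 10 genes passed in edgeR, where 1.75% of all genes were called lower and 0.585% higher (2.34% in all). That share depends on single libraries: 195 genes were lower and 65 higher with all 15, 1453 and 1307 without the third Telmisartan library, and 779 and 373 without the first cisplatin library. Without any 1 of the untreated, Tranilast, Amphotericin B or other Telmisartan libraries, 0 to 3 were lower and 0 to 1 higher. DESeq2 gave 795 and 279 of the 8312 genes to which it gave an adjusted p. At an unadjusted p under 0.05 there were 3 of the 10 (22.6% of all genes), and DESeq2 called 2, HSPA5 and SDF2L1. HSPA5 was higher with Tranilast by 0.80 (SE 0.251, adjusted p = 0.0789 by edgeR). Its libraries did not overlap, a pattern whose share over all genes was not counted here. The HSPA5 value was 1.14 at most among the alternatives, whose adjusted p ran from 0.0135 to 0.319. Between Telmisartan and Amphotericin B 0 of the 10 passed (0% of all genes; 192 genes lower and 473 higher without the first cisplatin library, and 64 and 120 by DESeq2), with 0 at an unadjusted p under 0.05 (20.5% of all genes) and 0 by DESeq2. The widest interval among the well-counted genes was that of PDIA3 (−0.61, 95% interval −1.45 to 0.22).

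The genes of the same pathway were read from lists of the ER and of the UPR. Among 36 other lumenal folding factors, 21 lay below untreated in all cisplatin libraries and 5 above. Over all genes 29.5% lay below and 24% above. With Tranilast 9 of the 36 were lower than with cisplatin alone and 2 higher, where 11.6% of all genes were lower and 10.5% higher. That balance turned with library size alone, which gave 2 lower and 11 higher and moved the median of all genes from 0.02 to 0.46. Without the second cisplatin library 4 were lower and 0 higher, where 719 of 11398 genes were lower and 471 higher. With Amphotericin B 3 of the 36 were lower and 1 higher (9.01% and 4.21% of all genes). Without the first cisplatin library 4 were lower and 11 higher, where 1949 of 11332 genes were lower and 1885 higher. Neither the fit on 6 libraries nor the one without the second cisplatin library called any. Over all genes these 2 fits called 66 lower and 23 higher of 9199, and 163 and 46 of 11398. Among those lower with both drugs were MLEC, which encodes the lectin malectin (365 ± 56.2 CPM with cisplatin, 165 ± 14.9 with Tranilast, adjusted p = 0.00114 by edgeR, and 217 ± 11.7 with Amphotericin B, adjusted p = 0.0103; n = 3 each), and SDF2, the paralog of SDF2L1. SDF2 was 14.5 ± 1.10 CPM untreated and 49.2 ± 8.58 CPM after cisplatin, and fell by 1.32 with Tranilast (adjusted p = 0.00163 by edgeR) and by 0.80 with Amphotericin B (adjusted p = 0.0281). SDF2 and SDF2L1 were thus both above untreated after cisplatin and both lower with Tranilast than with cisplatin alone. HSPA13, an ER-associated HSP70 relative, was 44.1 ± 2.86 CPM untreated and 14.3 ± 1.77 CPM after cisplatin, rose by 0.85 with Tranilast (adjusted p = 0.0151 by edgeR) and fell by 1.08 with Amphotericin B (adjusted p = 0.0257). SERPINH1, the collagen chaperone, rose by 1.16 with Amphotericin B (adjusted p = 0.0193 by edgeR), though its libraries overlapped. PPIB, a prolyl isomerase of the lumen, was 1.42 lower on the log2 scale with Tranilast than with Amphotericin B (32 ± 1.42 against 84.7 ± 9.60 CPM, adjusted p = 0.00106 by edgeR).

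Of the UPR sensors and transcription factors 11 were counted, and 8 lay below untreated in all cisplatin libraries (29.5% of all genes). With Tranilast 4 of the 11 were higher than with cisplatin alone (ATF6, MBTPS2, NFYC and XBP1) and none lower, where 10.5% of all genes were higher and 11.6% lower. Over the alternatives 2 to 6 were higher, with 2 without the second cisplatin library, and 0 to 1 lower, with 1 without the first. XBP1 was 121 ± 4.11 CPM untreated, 29.9 ± 9.58 CPM with cisplatin, 71.7 ± 9.03 CPM with Tranilast and 62.3 ± 11.5 CPM with Amphotericin B (SD, n = 3 each). It rose by 1.27 with Tranilast (adjusted p = 0.00197 by edgeR) and by 1.06 with Amphotericin B (adjusted p = 0.00848), and counts at the 3′ end do not tell spliced from unspliced XBP1. ATF6 was 105 ± 8.27 CPM untreated and 14.9 ± 10.5 CPM with cisplatin, and rose by 1.32 with Tranilast (adjusted p = 0.0114 by edgeR). MBTPS2, the protease that releases ATF6, rose by 1.38 (adjusted p = 0.00800 by edgeR). The sensors EIF2AK3 (7.37 CPM untreated, 3.32 CPM with cisplatin) and ERN1 (11.0 and 2.34 CPM) did not pass in any comparison with cisplatin alone, and EIF2AK3 was 1.86 higher with Tranilast than with Amphotericin B (adjusted p = 0.0143 by edgeR). NFYA and NFYB, subunits of the factor that binds the CCAAT letters of the ERSE, were lower with Amphotericin B than with cisplatin alone (−2.75 and −1.18, adjusted p = 0.00843 and 0.00722 by edgeR).

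The 12 outputs of the ATF4 and PERK branch had a median log2 difference from untreated cells of −1.76 with cisplatin and 0.04 with Tranilast, where single genes ranged from −1.04 to 0.28. Of the 12, 10 lay below untreated in all cisplatin libraries (29.5% of all genes), and 8 were higher with Tranilast than with cisplatin alone, where 10.5% of all genes were called higher, with 0 lower, 0 lower at an unadjusted p under 0.05 (37% of all genes in either direction) and 0 lower by DESeq2. Over the alternatives the count higher was 6 to 11. CHAC1, a glutathione-degrading enzyme, was 134 ± 4.62 CPM untreated, 31.2 ± 27.1 CPM with cisplatin and 158 ± 17.8 CPM with Tranilast (log2 fold change 2.31 against cisplatin, adjusted p = 0.00374 by edgeR). DDIT3, which encodes the factor CHOP, was 177 ± 8.54, 51.5 ± 23.0 and 150.1 ± 7.65 CPM in the same order (1.54, adjusted p = 0.00198). VLDLR, a lipoprotein receptor, rose by 2.85 (adjusted p = 0.00310 by edgeR) from 0.942 ± 0.473 CPM, so the size of its change rests on few counts. Their median log2 fold change against untreated was −1.64 with cisplatin and 0.03 with Tranilast, while the medians of the 10 chaperones were −1.56 and −1.27. The difference between the lists was not tested.

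**Figure D4:**
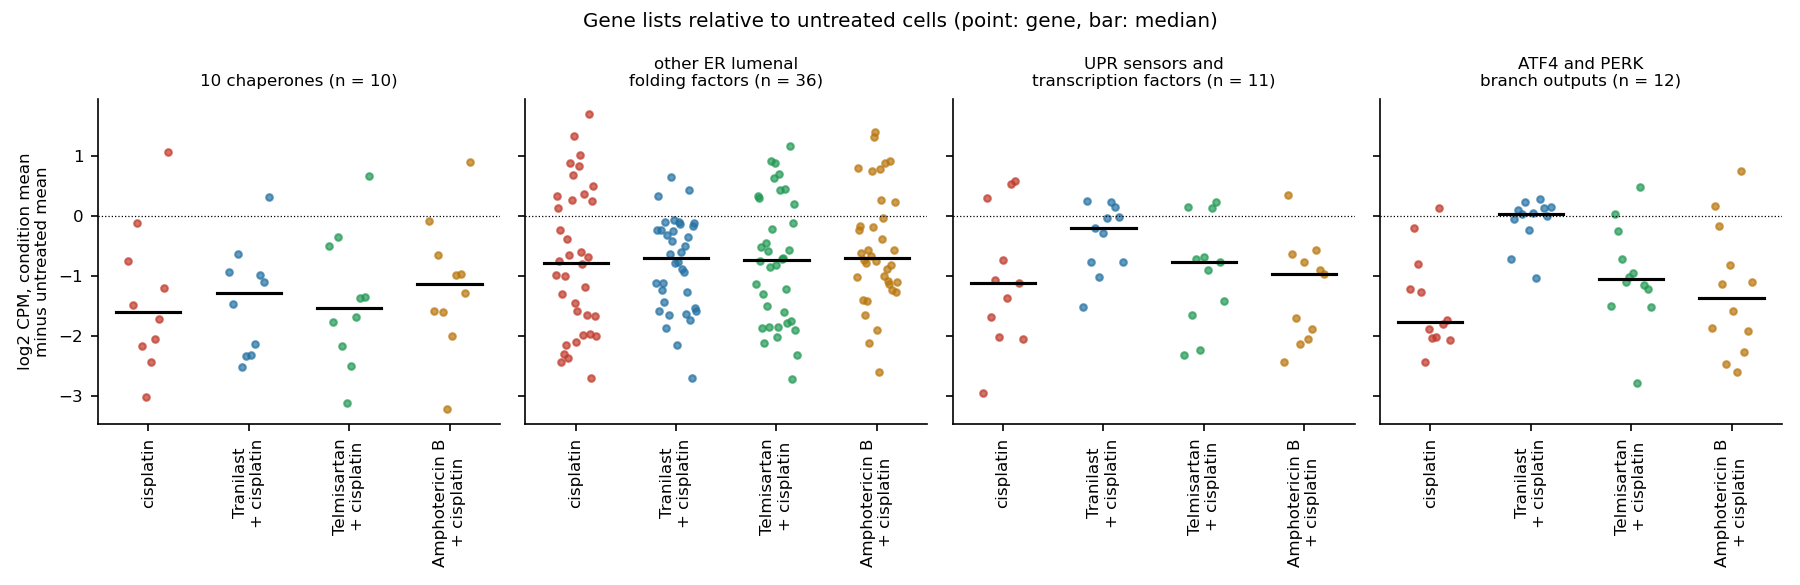
Difference in log2 CPM between each treated condition and untreated cells (vertical axis; condition means, prior count 2) for 4 lists; each point is a gene and the bar is the median of the list. With Tranilast the median is 0.04 for the 12 ATF4 and PERK outputs and −0.21 for the 11 UPR sensors and factors, but −1.28 for the 10 chaperones and −0.70 for the 36 other folding factors.

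In ER-associated degradation 8 of 24 genes lay below untreated in all cisplatin libraries and 8 above, beside 29.5% and 24% of all genes. With Tranilast 3 of the 24 were lower than with cisplatin alone (AUP1, SELENOS and DERL1) and 0 higher, where 11.6% of all genes were lower and 10.5% higher. Library size alone turned this to 1 lower and 5 higher (397 and 2582 over all genes). Without the first cisplatin library 5 were lower and 1 higher (1229 and 1423 over all genes). With Amphotericin B 2 were lower (DERL1 and UBE2G2) and 1, UFD1, was higher (9.01% and 4.21% of all genes). These became 5 lower and 2 higher without the first cisplatin library (1949 and 1885 over all genes), and 0 of each without the second (163 and 46). In the translocon, signal peptidase and oligosaccharyltransferase list of 28 genes, 9 lay below and 10 above untreated after cisplatin, beside 29.5% and 24% of all genes. With Tranilast 11 of the 28 were lower than with cisplatin alone and 3 higher, beside 11.6% and 10.5% of all genes. With library size alone 1 was lower and 5 higher (397 and 2582 over all genes). Without the first cisplatin library 7 were lower and 3 higher (1229 and 1423), and without the second 8 were lower and 0 higher (719 and 471). SEC61G, the small subunit of the translocon channel, was 112 ± 23.1 CPM untreated, 286 ± 184 CPM with cisplatin and 72.1 ± 9.06 CPM with Tranilast (−1.98, adjusted p = 0.00747 by edgeR). Of 9 HSP70 and HSP90 relatives outside the ER, 3 lay below and 4 above untreated after cisplatin, beside the same shares of all genes. HSP90AB1, the cytosolic HSP90, was 5352 ± 62.7 CPM untreated and 5044 ± 1275 CPM with cisplatin. HSPA8, the constitutive cytosolic HSP70, was 24.8 ± 1.81 CPM untreated, 86.0 ± 46.7 CPM with cisplatin, 32.3 ± 2.02 CPM with Tranilast and 197 ± 50.4 CPM with Amphotericin B, and differed between Tranilast and Amphotericin B by −2.61 (adjusted p = 0.000974 by edgeR). HSPA8 has many pseudogene copies, so its level is uncertain. With Telmisartan 0 genes of these 6 lists passed against cisplatin alone in edgeR, and DESeq2 also called 0. Without the first cisplatin library 1 folding factor was lower and 1 higher, 1 degradation gene was lower and 1 UPR gene was higher, where 244 of all genes were lower and 301 higher. With all 15 libraries, the unadjusted p of edgeR was under 0.05 for 10.3% of all genes in either direction. In the lists it was so for 3 of 36 folding factors, 4 of 24 degradation genes and 6 of 28 translocon genes, all lower. It was so for 4 of 12 ATF4 outputs and 1 of 11 UPR factors, all higher, and for 0 of the 9 HSP70 and HSP90 relatives.

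The genes whose means over the 5 conditions followed HSPA5 most closely were NEO1, SEL1L, DDR2, LAMP3 and CRISPLD1. Likeness was measured as the root-mean-square distance between log2 CPM profiles, each centred on its own mean over the 5 conditions, and was 0.139, 0.154, 0.205, 0.207 and 0.258 for these genes. SEL1L, the adaptor of the HRD1 ubiquitin ligase in ER-associated degradation, was at 93.4 CPM untreated, 9.56 CPM with cisplatin and 16.9 CPM with Tranilast. LAMP3 had at most 8.55 CPM as a condition mean, so its profile rests on few counts. Among the other chaperones the closest to HSPA5 was HYOU1, at rank 58 of 11112 genes (distance 0.451), followed by CANX at 222, HSP90B1 at 345 and PDIA6 at 505. SDF2L1, at rank 9711, was the farthest. These ranks use the comparison that chose HSPA5 and are a description.

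**Figure D5:**
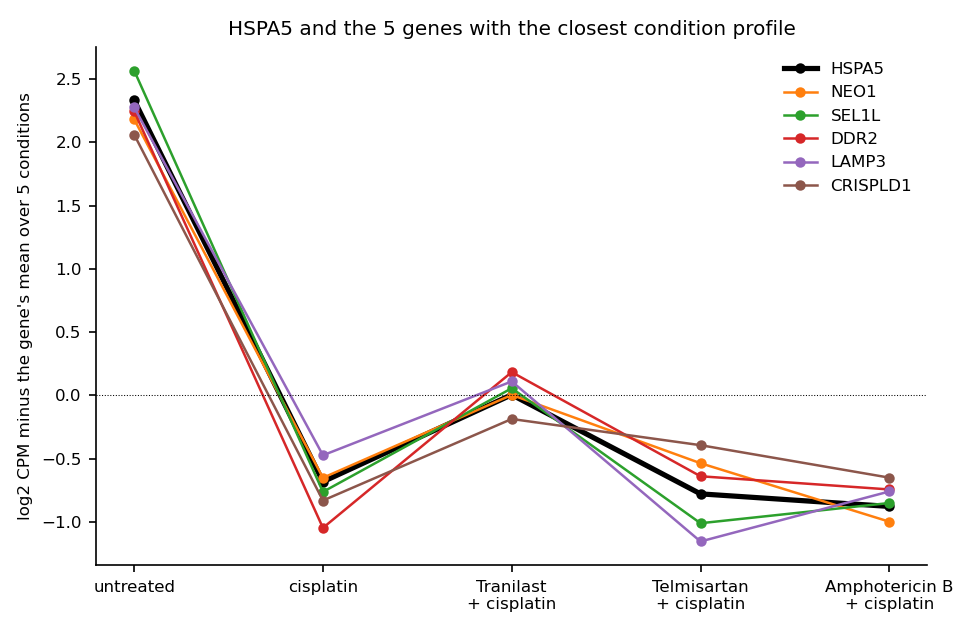
Mean log2 CPM of HSPA5 (black) and of the 5 genes with the closest profile in each condition, minus the gene's own mean over the 5 conditions (vertical axis); lines join the conditions of a gene. All 6 genes are highest in untreated cells, and HSPA5 lies 2.33 above its own mean there and 0.68 below it with cisplatin alone.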

How the data were processed

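Libraries were made with the QuantSeq 3′ mRNA-Seq kit and read as 75-base single ends. The submitters' processing notes name STAR 2.3.0, HTSeq and the build hg19. The annotation release and the strand setting are not given in the sources used here. The deposited values are raw counts per gene, 1 file per library, as the authors made them, with no normalization. Symbols and positions came from GENCODE 29 on GRCh38, which matched 45776 of the 47634 identifiers. Counts were analysed with edgeR 4.0.16 (R 4.3.3): filterByExpr, TMM factors, and the quasi-likelihood test (glmQLFit, glmQLFTest) on all 15 libraries, with an adjusted p threshold of 0.05. Libraries were grouped by their labels. Replicates differed beyond counting noise (chi-square per degree of freedom 2.24 to 44.1), so each counts as 1 sample. At this depth 3 counts are 8.53e-05 to 0.000199% of a library; such limits cover counting error only. The genes and gene lists were chosen with earlier results of these data known. Besides the 10 members, the text names the 2 genes of lowest adjusted p per list and comparison with a call, XBP1, ATF6, EIF2AK3 and ERN1 always, and the 5 genes closest to HSPA5; NFYC was named after its value was seen. Alternatives were RLE factors, library size alone, other filters, DESeq2 1.42.0, limma-voom (limma 3.58.1), fits on 6 libraries, a replicate block and each library left out. The code was tested on simulated data.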

Additional observations from a re-analysis of the deposited data

Results flagged for a closer look

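The 5 values here were picked out because the effect of adding a drug to cisplatin differed between Tranilast and Amphotericin B in a direct edgeR test between these groups (adjusted p under the threshold over all genes). HSPA5 was higher with Tranilast by 0.88 on the log2 scale, at 877 ± 176 against 475 ± 102 CPM. SDF2L1 (−0.58), HSP90B1 (−0.89), PDIA3 (−1.15) and CALR (−0.84) were lower with Tranilast. In each case all 3 libraries of one drug lay on one side of all 3 of the other, a pattern whose share over all genes was not counted here. Over all genes, 36% were called in the same comparison.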

How the results depend on the processing

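With library size alone, 0 of the 9 genes were lower with Tranilast than with cisplatin and 2 higher, 0 were higher with Amphotericin B, and between Tranilast and Amphotericin B 0 of 10 were lower and 4 higher. Against Amphotericin B the genes whose values then turned sign included PDIA4 (0.65), SDF2L1 (0.077), PPP1R15A (0.19), SSR2 (0.046), SELENOS (0.20) and HSPH1 (0.052), with a median of all genes of 0.81. This list is not complete. For the single gene higher with Tranilast than with cisplatin, RLE factors, the fit on 6 libraries and DESeq2 gave 0. For the single gene higher with Amphotericin B, the CPM filter and the fit on 6 libraries gave 0 and DESeq2 gave 2. Between Tranilast and Telmisartan DESeq2 called 1 lower and 1 higher, and no filter gave 1 higher. The cause of these moves was not tested. Leaving out 1 library gave 0 to 1 higher with Tranilast, 0 to 5 higher with Amphotericin B (5 without the first cisplatin library, 2 without the third Telmisartan library), 0 to 1 lower and 0 to 1 higher between Tranilast and Telmisartan (1 lower without the third Telmisartan library, 1 higher without it or without the first cisplatin library), and 2 to 4 lower and 0 to 1 higher between Tranilast and Amphotericin B. There 2 were lower without Tranilast replicate 1 or 2 or Amphotericin B replicate 2 or 3, and 0 were higher without Amphotericin B replicate 3. The number below untreated was 8 for cisplatin and 8 to 9 for each drug. Without the first cisplatin library, 1885 of 11332 genes were called higher with Amphotericin B than with cisplatin alone, against 468 of 11113 with all libraries. The groups share replicate numbers, but same-numbered libraries deviated together only in part (correlations of −0.23, −0.08 and −0.07 between Tranilast and cisplatin, 0.31, −0.17 and 0.63 between Telmisartan and cisplatin, and 0.06, 0.02 and −0.08 between Amphotericin B and cisplatin; in no pair of groups were all 3 above 0.1), so the numbers were not taken as pairs. With the replicate block the counts of these genes stayed within 1.5 times, with 1 lower and 1 higher of 9 with Tranilast. Counts of 3 to 21 limit DNAJB9.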
